A study of Mus musculus with 4 samples.

Results

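The genes described here are the subunits of the transcription factor NF-kB and the proteins that hold it back or steer it, taken as a named family: Rel, Rela, Relb, Nfkb1, Nfkb2, Nfkbia, Nfkbib, Nfkbie, Nfkbid and Bcl3. They are 10 of the 21937 genes in the table of read counts, and all 10 passed the filter on low values, a mean over the libraries of at least 2 CPM (reads per 1000000 counted reads, after scaling), which kept 9926 genes. RNA was sequenced from CD4+ T cells of the spleen, taken from 6-week-old mice of the B6 strain and stimulated in all groups with PMA, which activates protein kinase C, plus ionomycin, which raises cell calcium. There was 1 library for each of 4 genotypes. These were a library labelled as the double knockout (DKO) of Itch and WWP2, an Itch KO (floxed Itch alleles with a Cre transgene named Cd4cre, which acts in the T cell lineage), WWP2-/- (WWP2 KO) and wild type (WT). Neither the stimulation time nor the number of mice per library is given in the sources used here. Itch and WWP2 are ubiquitin ligases of the NEDD4 family, and the series asks what such ligases do in T cell activation.

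Total counts ran from 17130747 to 17990392 per library, so depth was alike. Wwp2 had 1135 reads in the library labelled DKO, 1332 in Itch KO and 4 in WWP2 KO, against 1363 in WT. The reads in the first of these go against its label, so each direction drawn from it belongs to that library and not to a known genotype. Itch had 2389, 1914, 1996 and 2083 reads in the same order, and a count over the whole gene does not check the floxed exons. The T cell label was borne out by its defining markers: 7 CD4 T cell genes, none at 0 reads, summed to between 1583 and 1997 CPM. The 8 B cell markers summed to at most 4.21 CPM, the 7 myeloid markers to at most 1.61 and the 5 mast cell and basophil markers to at most 0.699. Pax5, Fcgr1, Fcer1a and Ms4a2 were at 0 in every library.

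NF-kB is a family of dimers that share a DNA-binding Rel homology region. Rel (c-Rel), Rela (p65) and Relb carry an activation domain, whereas Nfkb1 and Nfkb2 encode precursors, p105 and p100, that are processed to p50 and p52 and act as inhibitors while uncut. In resting T cells IkB proteins keep the dimers in the cytoplasm. Protein kinase C signalling activates the IkB kinases, IkB is degraded, and the freed dimers switch on genes that include their own inhibitors, which gives the pathway its feedback.

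Because several of these genes are known targets of NF-kB themselves, the bases upstream of 5 of them are shown, Bcl3 and Nfkbie for the widest spread between libraries, Nfkbia for its higher level in both Itch-labelled libraries (those labelled DKO and Itch KO), and Rel and Nfkbid from the group that differed in opposite directions. The sequences are from RefSeq on GRCm38.p6, and the part inside the gene's own span was left out, so Bcl3 is shorter. For Nfkbid 1 of its 3 starts is shown. Capitals mark matches on either strand to the frame of a kappaB site, read as GGG, any 5 bases and CC:
Bcl3 (chr7:19822825-19823005, minus strand): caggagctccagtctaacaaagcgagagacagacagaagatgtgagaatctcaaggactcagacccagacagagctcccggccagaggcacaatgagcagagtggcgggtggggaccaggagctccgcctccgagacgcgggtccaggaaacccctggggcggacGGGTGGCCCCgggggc
Nfkbia (chr12:55492648-55492897, minus strand): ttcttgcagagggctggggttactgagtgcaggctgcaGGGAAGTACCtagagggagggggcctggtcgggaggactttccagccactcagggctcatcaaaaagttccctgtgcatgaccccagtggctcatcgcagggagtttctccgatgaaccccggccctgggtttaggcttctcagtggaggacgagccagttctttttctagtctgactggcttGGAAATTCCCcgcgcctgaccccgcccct
Nfkbie (chr17:45555450-45555699, plus strand): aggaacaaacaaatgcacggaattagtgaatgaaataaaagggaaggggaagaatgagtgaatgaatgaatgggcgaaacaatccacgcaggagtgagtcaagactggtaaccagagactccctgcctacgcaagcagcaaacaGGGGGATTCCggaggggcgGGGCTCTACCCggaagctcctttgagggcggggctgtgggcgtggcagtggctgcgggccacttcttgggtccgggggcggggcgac
Rel (chr11:23770970-23771219, minus strand): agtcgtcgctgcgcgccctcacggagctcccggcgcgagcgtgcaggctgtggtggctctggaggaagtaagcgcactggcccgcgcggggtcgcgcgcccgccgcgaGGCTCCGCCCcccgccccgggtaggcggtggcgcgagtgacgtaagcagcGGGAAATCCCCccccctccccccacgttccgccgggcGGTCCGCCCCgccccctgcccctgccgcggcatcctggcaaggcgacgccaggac
Nfkbid (chr7:30421481-30421730, plus strand): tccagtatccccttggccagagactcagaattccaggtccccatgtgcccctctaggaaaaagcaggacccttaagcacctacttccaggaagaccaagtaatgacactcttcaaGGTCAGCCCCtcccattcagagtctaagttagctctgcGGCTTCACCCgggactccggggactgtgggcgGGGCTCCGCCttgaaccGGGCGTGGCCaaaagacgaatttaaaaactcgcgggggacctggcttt
RefSeq entries matched 8 of the 10 genes, with 12 start sites, and Nfkb1 and Relb were not matched. Over the 250 bases before each start, 11 of the 12 windows held a match, those of 7 genes, against 45.8% of all 32851 windows of that length. The window without a match was that of Nfkbib, which also belongs to the group that differed in opposite directions and is not shown. The matches overlap one another in places, and the windows of these genes were rich in G and C, with a median of 64.6% against 52.4% over all windows. The part of base composition in the share of matches was not tested. In Nfkbia the match nearest the start lay 29 bases before it, and in Rel a run with 3 overlapping matches began 92 bases before it. The AP-1 word TGACTCA, found in 4.46% of all windows, stood in 1, that of Nfkbie. A match is a description of the letters and not a binding site.

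Bcl3 was the member that differed most between libraries. It encodes a nuclear IkB protein that binds p50 and p52 homodimers and can turn them into activators. It had 2864 reads in the library labelled DKO, 1053 in Itch KO and 544 in WWP2 KO, against 454 in WT, or 154, 60.7, 31.7 and 26.2 CPM. The 4 libraries thus stood apart in that order, with the library labelled DKO far above the rest and WWP2 KO close to WT. In the library labelled DKO the level was 5.88-fold that of WT (95% counting interval 5.33 to 6.51), and in Itch KO it was 2.32-fold that of WT (2.07 to 2.59). Against Itch KO the library labelled DKO was 2.54-fold higher (2.36 to 2.73). WWP2 KO stood at 1.21-fold of WT (1.07 to 1.38). The range of Bcl3 over the 4 libraries, 2.55 on the log2 scale, was wider than that of 95.6% of the genes tested, and the next widest, Nfkbie at 1.01, than that of 77.2%. Counting intervals cover counting error only, and with 1 library per genotype none of these differences has a replicate check. In bulk RNA, fewer cells of a type and less RNA per cell cannot be told apart.

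**Figure D1:**
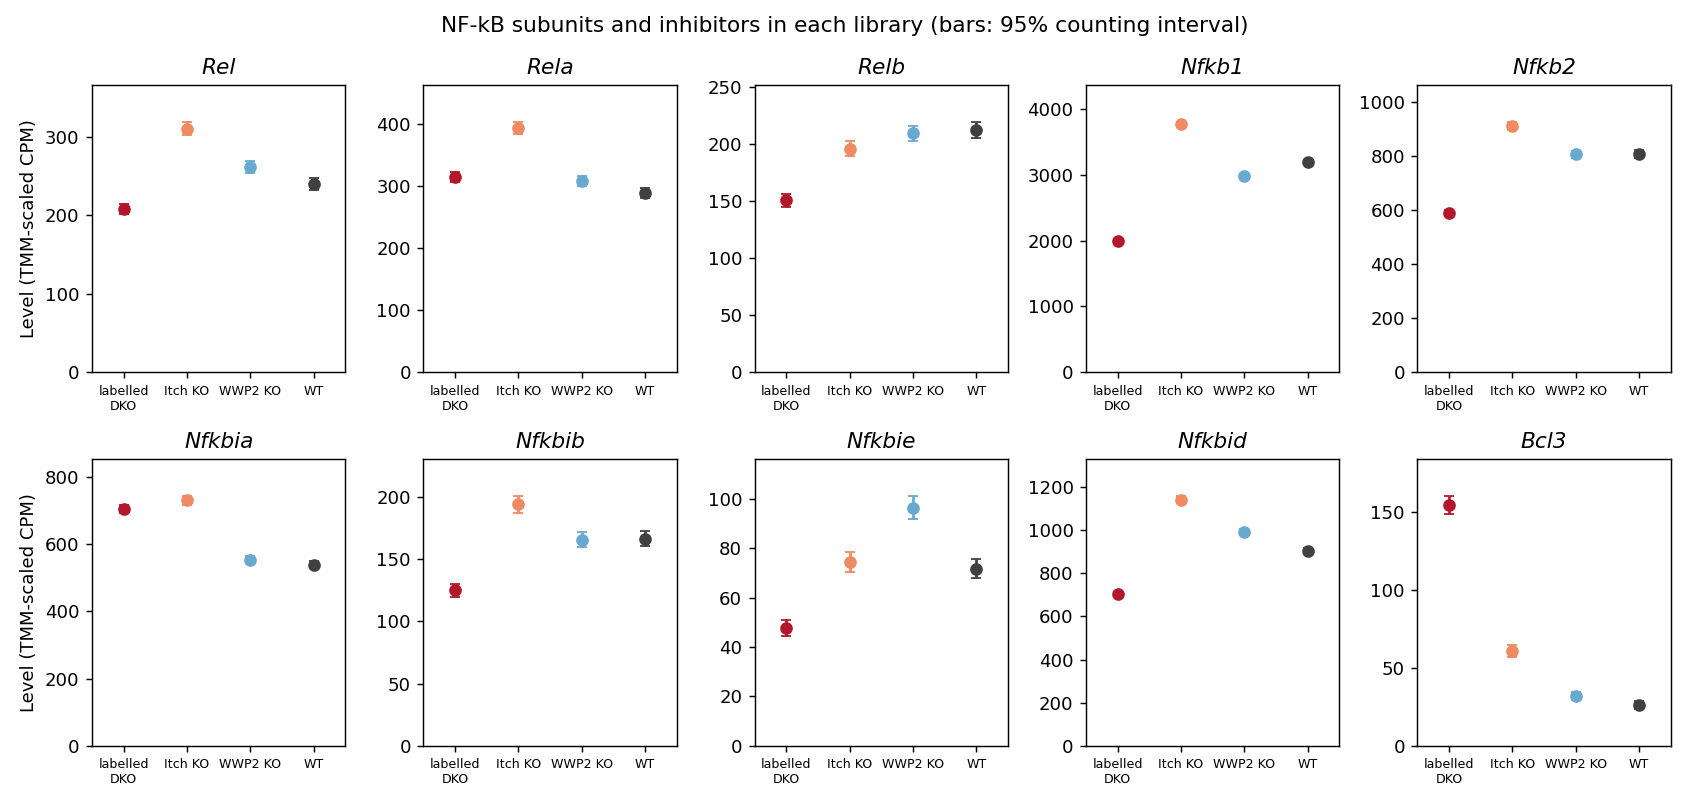
Level of each of the 10 genes in the 4 libraries, in CPM scaled by TMM factors, on axes that start at 0. Points are single libraries and bars are 95% counting intervals. Bcl3 is highest in the library labelled DKO, at 154 CPM, while Nfkb1 is lowest there, at 1994 CPM.

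The size rule asked for a log2 ratio of at least 1 in either direction (2-fold, with a prior count of 2) and a counting interval of the fold that left out 1. By this rule Bcl3 was the 1 member of 10 called in the library labelled DKO against WT, where 12.3% of all tested genes were called higher and 6.34% lower. It was also the 1 called in Itch KO against WT, where 4.89% were called higher and 0.846% lower. In WWP2 KO against WT 0 of 10 were called, against 0.282% higher and 0.161% lower among all genes. Bcl3 was again the 1 called in the library labelled DKO against Itch KO, where 9.18% of all genes were called higher and 5.16% lower. A count of 1 in 10 is too small to set the family apart from all genes in any of these.

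Counted by the interval alone, smaller differences enter. Against WT, the library labelled DKO had 3 of the 10 with an interval above 1 and 7 below it, against 37.3% and 40.6% of all tested genes. In Itch KO against WT, 8 were above and 1, Relb, below, against 25.8% and 28.4% of all genes. In WWP2 KO against WT, 6 were above and 1, Nfkb1, below, against 14.5% and 17.6%. The interval of Nfkbia, among the 6, began at 1.0001, so its place there is marginal. These intervals leave out any error of the scaling. Set against Itch KO, the library labelled DKO had 1 above and 9 below, beside 39.7% and 36.2%. Set against WWP2 KO, it had 2 above and 7 below, beside 37.3% and 40.4%. Genes with more reads have narrower intervals, and the part of read number in these counts was not tested.

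Nfkbid, the other gene of the set for a nuclear IkB protein, had its levels in another order. It encodes IkBNS, which like BCL3 acts on p50 in the nucleus. It had 703 CPM in the library labelled DKO, 1142 in Itch KO and 992 in WWP2 KO, against 903 in WT. It was thus lowest where Bcl3 was highest, and highest in Itch KO. The level was 1.29-fold lower in the library labelled DKO than in WT (1.26 to 1.32) and 1.26-fold higher in Itch KO than in WT (1.24 to 1.29). Within each library there were 21.9 reads of Bcl3 per 100 of Nfkbid in the library labelled DKO, 5.32 in Itch KO and 3.20 in WWP2 KO, against 2.90 in WT.

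The subunit genes with an activation domain differed by smaller amounts. Rel, the subunit most tied to cytokine genes of lymphocytes, had 208 CPM in the library labelled DKO, 309.8 in Itch KO and 261 in WWP2 KO, against 239.6 in WT. Rela, which encodes the most widely used partner of p50, had 315 CPM in the library labelled DKO, 393 in Itch KO and 308 in WWP2 KO, against 289 in WT. Relb, the partner of p52 in the alternative pathway, had 151 CPM in the library labelled DKO, 196 in Itch KO and 209.5 in WWP2 KO, against 212 in WT. Rel and Rela were highest in Itch KO, at 1.29-fold (1.24 to 1.35) and 1.36-fold (1.31 to 1.41) of WT. The library labelled DKO was lowest for Rel and for Relb, at log2 ratios to WT of -0.21 and -0.49. For Rela its fold over WWP2 KO was 1.02 (0.985 to 1.06), and its log2 ratio to WT was 0.12. Reads of Rel per 100 reads of Rela came to 65.9 in the library labelled DKO, 78.7 in Itch KO and 84.7 in WWP2 KO, against 82.9 in WT.

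The precursor genes shared the low level in the library labelled DKO. Nfkb1 had 37068 reads in that library, 65417 in Itch KO and 51140 in WWP2 KO, against 55499 in WT. This is 1994, 3771, 2983 and 3201 CPM, and Nfkb1 alone took between 40.0% and 49.6% of the reads of the 10 genes. In the library labelled DKO it was 1.60-fold lower than in WT (1.58 to 1.63) and 1.89-fold lower than in Itch KO (1.87 to 1.92). Nfkb2, the precursor of the alternative pathway, had 588 CPM in the library labelled DKO, 910.0 in Itch KO and 806 in WWP2 KO, against 808 in WT. WWP2 KO and WT overlapped for Nfkb2, Itch KO stood above both and the library labelled DKO below. The gene model of Nfkb2 overlaps that of Psd, which had 1022 to 1528 reads, and the strand setting of the counting is not given in the sources used here. In RefSeq the models of Bcl3, Nfkb1 and Nfkbib also overlap others, Gm16174, Gm46827 and Ccer2, which are not among the genes counted. BCL3 acts through p50, and Bcl3 had 7.73 reads per 100 reads of Nfkb1 in the library labelled DKO, 1.61 in Itch KO and 1.06 in WWP2 KO, against 0.818 in WT.

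Among the cytoplasmic inhibitors, Nfkbia parted from the others. It encodes IkB-alpha, the inhibitor that is degraded and resynthesised fastest after stimulation. Its level was 705 CPM in the library labelled DKO, 730.5 in Itch KO and 555 in WWP2 KO, against 539 in WT. Both Itch-labelled libraries therefore stood above both others, at 1.31-fold of WT (1.27 to 1.34) in the library labelled DKO and 1.36-fold (1.32 to 1.39) in Itch KO. Bcl3 and Rela stood the same way, though for Rela the intervals of the library labelled DKO and WWP2 KO overlapped. Relb stood the other way. The share of all genes that part like this was not counted. Nfkbib, which encodes the slower turning IkB-beta, had 125 CPM in the library labelled DKO, 194 in Itch KO and 166 in WWP2 KO, against 166 in WT. Nfkbie encodes IkB-epsilon, which holds back dimers of c-Rel and p65. It had 47.8 CPM in the library labelled DKO, 74.5 in Itch KO and 96.4 in WWP2 KO, against 71.7 in WT.

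Nfkbie was the member with the largest fold difference in WWP2 KO, 1.34-fold of WT (1.25 to 1.45), on 1653 and 1244 reads. The library labelled DKO was 2.02-fold below WWP2 KO (1.86 to 2.19), a call as lower, with 6.05% of all tested genes called lower and 11.6% higher in that comparison. Scaled by total counts alone it was not called. Bcl3 was the other member called there, at 4.86-fold (4.43 to 5.33). Within the library labelled DKO, Nfkbia gave 80.3% of the reads of the cytoplasmic inhibitors, which was 73.1% in Itch KO and 67.9% in WWP2 KO, against 69.3% in WT. Reads of Nfkbia per 100 reads of Rel came to 339 in the library labelled DKO, 236 in Itch KO and 212 in WWP2 KO, against 225 in WT.

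**Figure D2:**
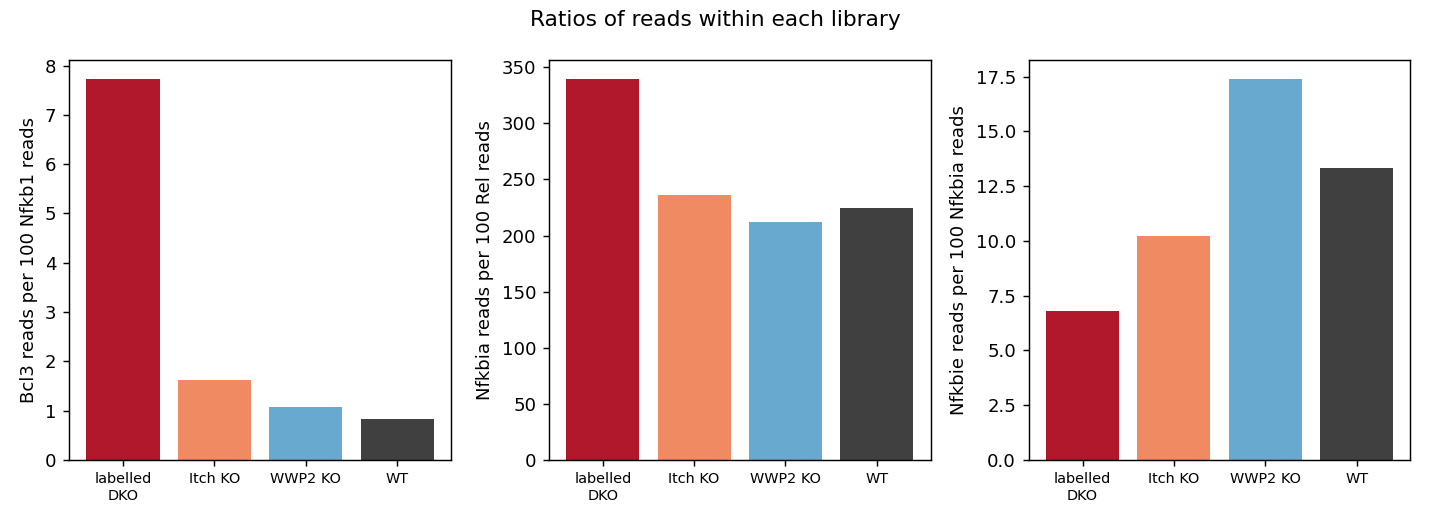
Reads of one gene per 100 reads of another, within each of the 4 libraries; bars start at 0, and each is 1 library with no error. Bcl3 per 100 Nfkb1 reads is 7.73 in the library labelled DKO and 0.818 in WT, and Nfkbie per 100 Nfkbia reads is 6.78 in the library labelled DKO and 13.3 in WT.

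Set side by side, 7 of the 10 genes (Rel, Relb, Nfkb1, Nfkb2, Nfkbib, Nfkbie and Nfkbid) were lowest in the library labelled DKO, 1 was highest there and 2, Rela and Nfkbia, lay inside the range of the others. Of all tested genes 40.6% were lowest in that library and 40.3% highest. The median log2 ratio of the 10 genes to WT was -0.39 in the library labelled DKO, 0.29 in Itch KO and 0.07 in WWP2 KO, against medians of -0.03, -0.02 and -0.01 over all tested genes. These 3 comparisons share the WT library. The 10 genes together took 0.515% of the reads in the library labelled DKO, 0.765% in Itch KO and 0.641% in WWP2 KO, against 0.635% in WT. Nfkb1 makes up much of these shares.

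**Figure D3:**
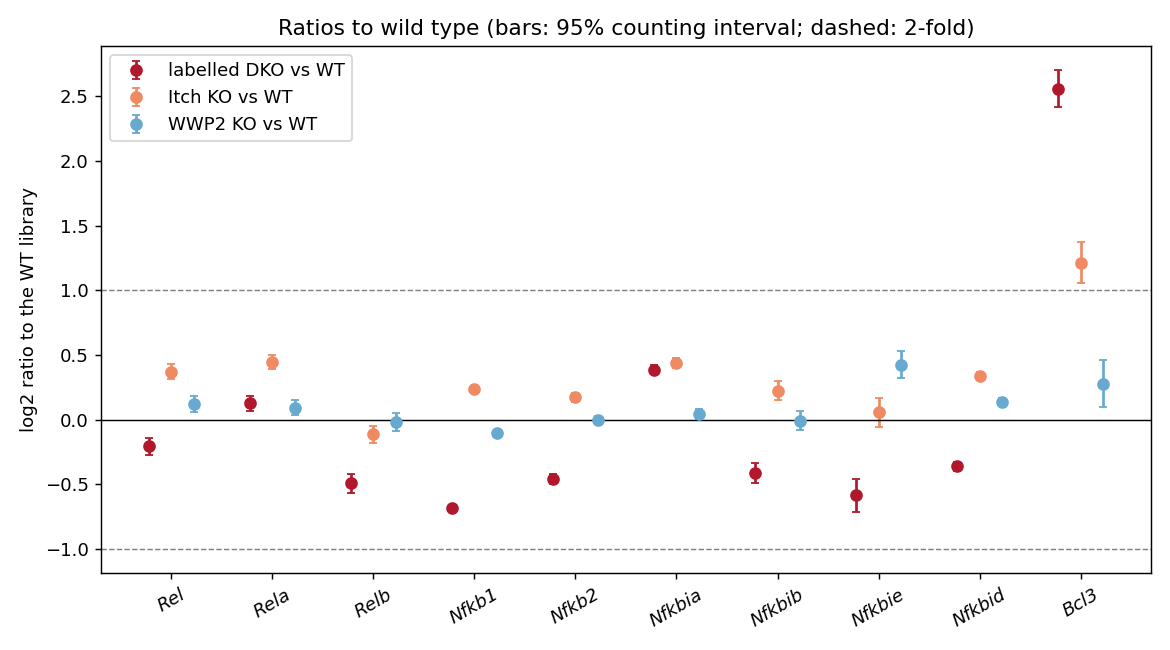
The log2 ratio of each gene to the WT library, for the library labelled DKO, Itch KO and WWP2 KO, with 95% counting intervals; dashed lines mark 2-fold. Bcl3 is past the upper line at 2.55 in the library labelled DKO and 1.21 in Itch KO, and no gene is past the lower line.

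The Itch label can be followed in 2 pairs of libraries that have no library in common, Itch KO against WT and the library labelled DKO against WWP2 KO. For 5 of the 10 genes the pairs went opposite ways, each with a counting interval that excluded 1. Rel, Nfkb1, Nfkb2, Nfkbib and Nfkbid were higher in Itch KO than in WT and lower in the library labelled DKO than in WWP2 KO. Of all tested genes, 6.52% had this pattern and 4.45% the reverse. Genes with more reads have narrower intervals and so reach either pattern more readily, and the part of read number was not tested. Nfkb1 had a log2 ratio of 0.24 in Itch KO to WT and of -0.58 in the library labelled DKO to WWP2 KO. The matching log2 ratios of Nfkbid were 0.34 and -0.50, those of Rel 0.37 and -0.33, those of Nfkbib 0.22 and -0.41, and those of Nfkb2 0.17 and -0.46. Bcl3 and Nfkbia were higher in both pairs, a pattern of 16.5% of all tested genes. Relb was lower in both, at -0.11 and -0.47, a pattern of 17.5% of them. Rela and Nfkbie each had 1 ratio whose interval held 1. Genes with 1 or both ratios of that kind made up 55.0% of all those tested. The difference between the pairs has no test across replicates, and these genes were chosen with earlier results known.

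**Figure D4:**
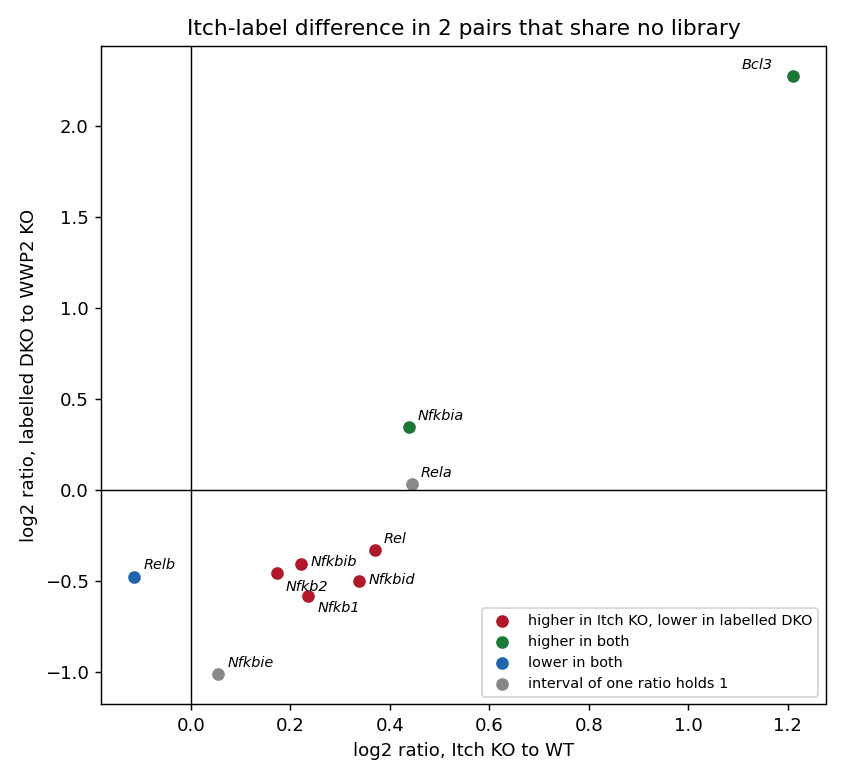
Each point is 1 gene, with its log2 ratio of Itch KO to WT on the x axis and of the library labelled DKO to WWP2 KO on the y axis. The 5 genes at the lower right are higher in Itch KO (0.17 to 0.37) and lower in the library labelled DKO (-0.58 to -0.33), while Bcl3 is high on both axes.

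A test was available for the Itch label alone, with the library labelled DKO and Itch KO against WWP2 KO and WT. The genotypes within a side differ, so its spread is not that of replicates. In edgeR's quasi-likelihood test with Benjamini-Hochberg adjustment, 0 of the 10 genes passed an adjusted p of 0.05, and over all 11197 genes tested 0.00893% passed as higher and 0% as lower. At an unadjusted p under 0.05 there were 2 of the 10, Bcl3 and Nfkbia, near the 13.6% of all genes tested. Bcl3 had a log2 difference of 1.91 (edgeR adjusted p = 0.265) and Nfkbia one of 0.41 (edgeR adjusted p = 0.350). DESeq2's Wald test called 1 of the 10, Bcl3, with an adjusted p of 0.000887, and 5.59% of all genes as higher and 0.875% as lower. Over the alternatives the adjusted p of Bcl3 ran from 1.37e-07 to 0.711, and that of Nfkbia from 0.00973 to 0.9999. The edgeR result turned on single libraries. Without the library labelled DKO 3 of the 10 were called, Bcl3, Rela and Nfkbia, all higher, with 8.57% of all genes called higher and 5.03% lower. Without the Itch KO library 8 of the 10 were called, 2 higher and 6 lower, with 28.6% of all genes called higher and 24.9% lower. With either left out, the lone library is assumed to vary like the pair on the other side. Without the WWP2 KO or the WT library 0 were called.

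Per kilobase of annotated exon, levels of different genes can be compared, with the reservation that exon lengths came from GENCODE M21 on GRCm38 and not from the authors' annotation. Nfkb1 was first in every library, at 484 CPM per kb in the library labelled DKO and 776 in WT. Nfkbid, Nfkbia and Nfkb2 came next in WT, at 405, 341 and 191 CPM per kb, followed by Rela at 106, Relb at 96.0 and Nfkbib at 78.3. At the low end of WT stood Rel at 32.1, Nfkbie at 29.5 and Bcl3 at 14.2 CPM per kb, and the counting intervals of Rel and Nfkbie touched. In the library labelled DKO Nfkbia, at 447, came before Nfkbid, at 315, and Bcl3 was the sixth at 83.3 CPM per kb, above Relb at 68.2, Nfkbib at 58.8, Rel at 27.8 and Nfkbie at 19.6. In Itch KO the intervals of Relb and Nfkbib overlapped, at 88.8 and 91.3 CPM per kb, as did those of Bcl3 and Nfkbie, at 32.8 and 30.6.

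Of the machinery that activates NF-kB, 0 of 24 genes were called in any of the 5 comparisons of single libraries, in which between 0.161% and 12.3% of all tested genes were called in a given direction. Their median log2 ratio to WT was -0.02 in the library labelled DKO, -0.03 in Itch KO and 0.02 in WWP2 KO. Members of the list are named here for their roles. Malt1, which encodes a paracaspase, had 6128 reads in the library labelled DKO, 10489 in Itch KO and 9164 in WWP2 KO, against 9165 in WT. It was lowest of the 24 in the library labelled DKO against WT, at a log2 ratio of -0.68, and stood at 0.19 in Itch KO, on the same sides as Nfkb1. The genes of the IkB kinase had, in the library labelled DKO, log2 ratios to WT of -0.22 for Ikbkb, 0.12 for Chuk and 0.08 for Ikbkg.

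Among 20 other regulators measured, 2 were called higher and 1 lower in the library labelled DKO against WT, and 0 higher and 1 lower in Itch KO. Over all tested genes 12.3% were called higher and 6.34% lower in the library labelled DKO, and 4.89% and 0.846% in Itch KO. N4bp1, a suppressor of NF-kB signalling, was 3.02-fold of WT in the library labelled DKO (2.85 to 3.19), and Pdlim2, which promotes loss of nuclear p65, was 2.58-fold (2.29 to 2.92). Trib3, a pseudokinase gene of the stress response, had log2 ratios to WT of -2.95 in the library labelled DKO and -1.24 in Itch KO. Nfkbiz and Tnfaip3 are named for their roles. Nfkbiz encodes IkB-zeta, the nuclear IkB protein nearest to those of Bcl3 and Nfkbid, and had 8524 reads in the library labelled DKO, 6541 in Itch KO and 4705 in WWP2 KO, against 4552 in WT. It was highest in the Itch-labelled libraries, as Bcl3 was, at log2 ratios to WT of 0.80 and 0.52 in the same order, short of the 2-fold rule. Tnfaip3, which encodes the feedback inhibitor A20, stood at 0.60 in the library labelled DKO and 0.64 in Itch KO.

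Of 29 other target genes of NF-kB that could be called, 3 were higher and 9 lower in the library labelled DKO than in WT, and 3 were higher and 0 lower in Itch KO. The shares of all tested genes were 12.3% higher and 6.34% lower in the library labelled DKO, and 4.89% and 0.846% in Itch KO. Their median log2 ratio to WT was -0.56 in the library labelled DKO, 0.17 in Itch KO and -0.0031 in WWP2 KO, where 0 were called. At the ends in the library labelled DKO were Ier3, an early stress response gene, at a log2 ratio of 3.06, the costimulatory receptor gene Tnfrsf9 at 1.47, Tnf at -2.09 and Il2, the T cell growth factor gene, at -4.34. The highest in Itch KO were the cytokine gene Csf2, at 1.46, and the costimulatory receptor gene Tnfrsf4, at 1.19. Against Itch KO, the library labelled DKO had 1 target called higher and 11 lower, with 9.18% and 5.16% of all tested genes called. Il2 had 270 reads in the library labelled DKO, 5779 in Itch KO and 4226 in WWP2 KO, against 5139 in WT, so that 1 library stood apart. Ier3 had 676 reads in the library labelled DKO, 147 in Itch KO and 89 in WWP2 KO, against 74 in WT, the order of Bcl3. Many of these genes are also known targets of NFAT and AP-1.

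Markers of cells other than CD4 T cells moved with the libraries as follows. The 6 dendritic cell markers summed to 23.2 CPM in the library labelled DKO, 15.8 in Itch KO and 5.37 in WWP2 KO, against 8.13 in WT. Xcr1 gave 322 of the 431 reads in the library labelled DKO. It had 113 reads in Itch KO and 48 in WWP2 KO, against 54 in WT. Zbtb46 had 71, 106, 40 and 64 reads in the same order, Siglech 0, 26, 2 and 9, and Itgax 38, 27, 2 and 12. Clec9a had at most 1 read and Flt3 at most 2. Zbtb46 and Siglech were thus highest in Itch KO, and Xcr1 and Itgax in the library labelled DKO. The 4 NK cell markers summed to 2.04 CPM in the library labelled DKO, 5.88 in Itch KO and 5.77 in WWP2 KO, against 8.71 in WT, with Klra8 at 0 throughout. Klrb1c and Klrk1 were called lower in the library labelled DKO than in WT, at log2 ratios of -2.77 and -1.47. The 2 CD8 markers summed to 7.05 CPM in the library labelled DKO, 15.9 in Itch KO and 6.53 in WWP2 KO, against 7.44 in WT, with Cd8b1 called higher in Itch KO at 1.06. Nearly all of these reads were of Cd8b1, with 129, 267, 108 and 127 in the same order. Cd8a had 2, 9, 4 and 2. Of the 7 CD4 T cell markers, 3 were called higher and 1 lower in the library labelled DKO against WT. Over all tested genes 12.3% were called higher and 6.34% lower. The median log2 ratio of the 7 was 0.55. The 2 highest, Cd3g and Cd4, had log2 ratios of 1.13 and 1.11, and the 1 called lower, Cd5, one of -1.24. The part of these cells in the values of the 10 genes was not tested.

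The genes whose profile over the 4 libraries lay nearest to that of Bcl3, among 7914 genes with a mean of at least 10 CPM, were the phosphatase gene Dusp10, at a distance of 0.12 between centred log2 CPM values, the annexin gene Anxa6 at 0.17 and the lipid phosphatase gene Inppl1 at 0.17. Dusp10 had 1358 reads in the library labelled DKO, 537 in Itch KO and 249 in WWP2 KO, against 209 in WT. Nearest to Nfkbie were Lsm11, a gene of histone RNA processing, at 0.06, C230081A13Rik at 0.09 and the noncoding RNA Kcnq1ot1 at 0.10. Lsm11 had 359 reads in the library labelled DKO, 507 in Itch KO and 637 in WWP2 KO, against 502 in WT. A likeness over 4 libraries is a description, and reads of Kcnq1ot1 cannot be told apart from those of Kcnq1 without a known strand.

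On the chromosomes, 4 of the 10 genes (Relb, Bcl3, Nfkbib and Nfkbid) lie on chromosome 7 in RefSeq's GRCm38.p6, and their levels did not all go together. In the library labelled DKO, Bcl3 was far above WT while Relb, Nfkbib and Nfkbid stood below it. In Itch KO, Bcl3, Nfkbid and Nfkbib were above WT, at 2.32-fold, 1.26-fold and 1.17-fold, and Relb was 1.08-fold lower.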

How the data were processed

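The values were raw counts of reads per gene symbol, deposited by the authors as 1 table of 4 libraries without normalization. The submitters' processing notes name HTSeq 0.7.1, TopHat 1.4.1, Bowtie 1.0.0 and the build mm9; annotation and strand setting are not given there. Coordinates printed belong to RefSeq sequences on GRCm38.p6, since the table held none. TMM factors (trimmed mean of M values, edgeR 4.0.16, R 4.3.3) scaled the counts. Ratios used a prior count of 2; folds used none, with exact conditional binomial 95% intervals, and levels have exact Poisson 95% intervals. Reads were not counted by molecule, so intervals cover counting error only. The Itch-label test used genes kept by filterByExpr, with DESeq2 1.42.0 as an alternative. A trial on simulated data treated the libraries within a side as replicates, which these are not, so it does not vouch for the test here. Python 3.11.15, scipy 1.17.1 and pandas 2.3.3 did the rest.

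The members and the lists (activation machinery, other regulators, target genes, markers of CD4, CD8, B, myeloid, dendritic, NK and mast cells) were chosen with earlier results of these data known. The activation list holds 1 gene that is not reported here by name. Named from a list were up to 2 genes per end past the 2-fold rule in the library labelled DKO or Itch KO against WT; genes named for a role are said to be. The likeness rule took the 3 nearest genes for the 2 members with the widest range.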

Additional observations from a re-analysis of the deposited data

Results flagged for a closer look

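5 genes were higher in Itch KO than in WT but lower in the library labelled DKO than in WWP2 KO, so the difference that goes with the Itch label had opposite signs in pairs that share no library. The log2 difference between the pairs (library labelled DKO to WWP2 KO, minus Itch KO to WT) was -0.82 for Nfkb1, -0.84 for Nfkbid, -0.70 for Rel, -0.63 for Nfkb2 and -0.63 for Nfkbib. With 1 library per genotype this difference was not tested. The Wwp2 reads in the library labelled DKO go against its label, so the pair does not compare known genotypes.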

How the results depend on the processing

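No paired analysis was possible because the groups compared share 1 replicate number, with 1 library each. Bcl3 was called in the library labelled DKO against WT, Itch KO and WWP2 KO, and in Itch KO against WT, under every filter, scaling, prior count and size rule tried. A 1.5-fold rule called 3 of the 10 genes in the library labelled DKO against WT (1 higher, 2 lower), where it called 20.5% of all tested genes higher and 17.5% lower, and 6 against Itch KO (1 higher, 5 lower), where it called 19.5% and 14.5%. Scaling by total counts called 1 against WWP2 KO in place of 2, without Nfkbie. It gave all 4 sign changes among the 150 log2 ratios recomputed under another scaling or prior count: Relb, Nfkb2 and Nfkbib in WWP2 KO to WT (0.01, 0.02 and 0.02) and Nfkbia in the library labelled DKO to Itch KO (0.02). The largest shift among the 150 was 0.0714. The 5 opposite and the 7 lowest genes kept those counts under 2 other scalings, chosen after seeing the data, as did the single-knockout calls with factors computed without the library labelled DKO.

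In the Itch-label test edgeR called 0 of the 10 genes and 1 gene in all. DESeq2 called 1 and 724, and the additive model with the WWP2 label 1 and 175. That model takes the library labelled DKO as lacking WWP2, which its Wwp2 reads go against. Leaving out 1 library gave 0 to 8 of the 10 genes and 1 to 6220 in all, the highest without Itch KO; without the library labelled DKO they were 3 and 1547. The cause was not tested. Depth was alike in the 4 libraries, and no replicate of a genotype was analysed.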
